A study of Arabidopsis thaliana with 3 samples.

Results

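STZ, ORA47 and PUB19 are 3 stress regulators of Arabidopsis thaliana. Their probe sets were found by symbol in the platform annotation, which gave exactly 1 probe set for each, so all 3 members were found, out of 13356 genes that a probe set specific to 1 gene named. They were picked because earlier results on these arrays had shown large ratios for them, so their signals and ratios are descriptions and carry no test.

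Whole seedlings were harvested at 7 days, after germination in constant light on MS agar, and RNA from each of 3 genotypes was hybridised to 1 array. The genotypes were wild type (ecotype Columbia), the line 35S:WRKY6-9, called the overexpressor, and wrky6-1, called the knockout, with no treatment in any group. The 35S promoter is active in most plant tissues, the overexpressor is a single transgenic line, and the number of seedlings behind each array is not given in the sources used here. With 1 array per genotype no difference has a replicate check, and in whole seedlings fewer cells expressing a gene and less RNA per cell cannot be told apart.

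STZ, also called ZAT10, is a zinc finger protein with a repressor motif whose transcript is known to accumulate under salt, cold, drought, strong light and mechanical disturbance. ORA47 belongs to the AP2/ERF family of DNA-binding proteins and is known as an activator of jasmonate synthesis genes. PUB19 is a U-box ubiquitin ligase, an enzyme that marks other proteins with ubiquitin, and is known as a negative regulator of abscisic acid and drought responses. WRKY6 is a transcription factor of the WRKY family, whose members bind W-box elements in promoters, and it is known from senescence, pathogen and phosphate responses.

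The WRKY6 probe set was at 322 in wild type, 9245 in the overexpressor and 12.1 in the knockout, in the directions of the labels. Signals are the deposited intensities on a linear scale in arbitrary units, and they compare 1 probe set across arrays, not different genes. Before log2 ratios were taken, signals below the pooled 30th percentile, 45.5, were raised to it. A comparison counted a probe set as measured if either array reached the pooled median of 174.6. Among genes with several measured probe sets, the SD of log2 ratios within a gene was 0.25 for the overexpressor over wild type, 0.23 for the knockout over wild type and 0.27 for the overexpressor over the knockout. That SD holds no variation between plants, RNA extractions or hybridisations. The leaf genes RCA and LHCB4.2 had log2 ratios to wild type of 0.34 and -0.40 in the overexpressor and of 0.35 and -0.47 in the knockout. Of the root genes, EXPA7, EXPA18 and PYK10 were at 0.92, 0.77 and 0.30 in the overexpressor and at -0.18, 0.13 and 0.36 in the knockout. EXPA7, at 128 in wild type, 243 in the overexpressor and 113 in the knockout, passed the filter only through the overexpressor, which fixed its direction there. It was not measured in the knockout against wild type. Whether a difference in tissue shares enters the values below was not tested.

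The STZ signal was 1611 in wild type, 470 in the overexpressor and 531 in the knockout. Wild type was the high array, and both lines lay at about the same lower level. STZ was 3.43-fold lower in the overexpressor than in wild type, a log2 ratio of -1.78, and 3.04-fold lower in the knockout, a log2 ratio of -1.60. Between the lines the log2 ratio was -0.17, smaller in size than the SD within a gene, so the order of the lines is not resolved. All 3 STZ signals were above the filter.

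The ORA47 signal was 490 in wild type, 89.5 in the overexpressor and 117 in the knockout. As for STZ, wild type was high and both lines were low. ORA47 was 5.47-fold lower in the overexpressor and 4.19-fold lower in the knockout, log2 ratios of -2.45 and -2.07. The lines themselves differed by a log2 ratio of -0.38. Neither line reached the filter, so ORA47 counted as measured against wild type only through its wild-type signal, which fixed its direction there. Between the lines it was not measured, and its direction changed with the scaling (0.12 under lowess). In the TAIR10.1 gene table the span of ORA47 overlaps a second annotated gene, AT1G74929, for which no probe set was analysed here, and whether its transcript contributes to the ORA47 signal was not tested.

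The PUB19 signal was 138 in wild type, 1435 in the overexpressor and 423 in the knockout. Here wild type was the low array, the knockout was intermediate and the overexpressor was highest. PUB19 was 10.4-fold higher in the overexpressor than in wild type, a log2 ratio of 3.38, and 3.06-fold higher in the knockout, a log2 ratio of 1.61. It was also 3.40-fold higher in the overexpressor than in the knockout, a log2 ratio of 1.76. Because the wild-type signal lay under the filter, PUB19 was measured in the comparisons with wild type only through the lines, which fixed its direction there. Its comparison between the lines has both arrays above the filter.

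**Figure D1:**
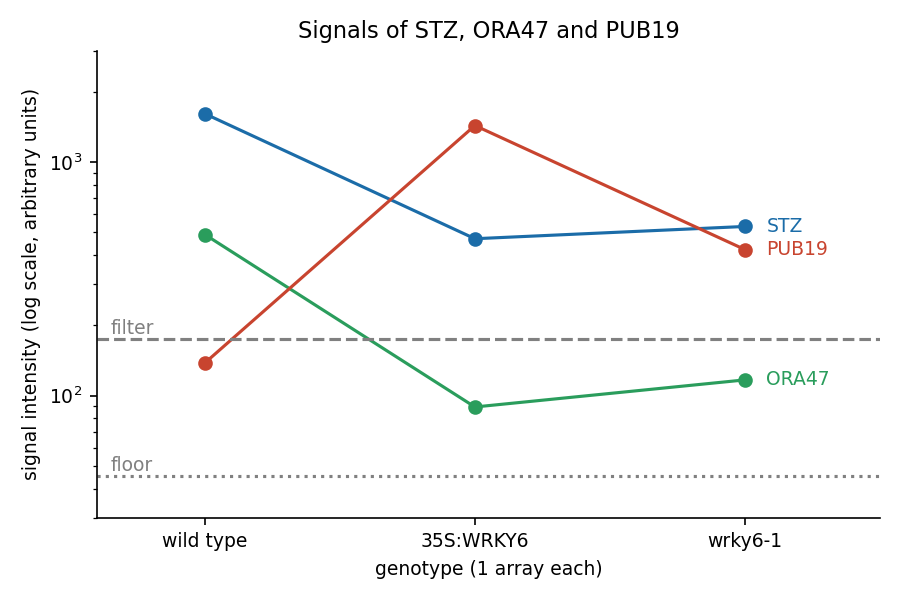
Signal intensity (vertical log axis, arbitrary units) of STZ, ORA47 and PUB19 on the wild-type, 35S:WRKY6 and wrky6-1 arrays, each point being 1 array, with the floor of 45.5 dotted and the filter of 174.6 dashed. STZ and ORA47 are highest in wild type, at 1611 and 490, and PUB19 is lowest there, at 138.

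Against wild type, 2 of the 3 genes were at least 2-fold lower and 1 was at least 2-fold higher in each line. Both comparisons use the same wild-type array, so any deviation of that array enters both ratios. Of the 12139 probe sets measured in the overexpressor or wild type, 9.40% differed at least 2-fold, 3.79% being higher and 5.61% lower in the overexpressor. Of the 12222 measured in the knockout or wild type, 12.9% differed at least 2-fold, 5.16% being higher and 7.77% lower in the knockout. Between the lines, 9.18% of 12000 differed at least 2-fold, 4.53% being higher and 4.65% lower in the overexpressor. The members were chosen on these contrasts, so nothing is read from their count.

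The 3 genes lay at different depths in these distributions. In the overexpressor, PUB19 had the 8th highest log2 ratio of all measured probe sets, ORA47 the 46th lowest and STZ the 147th lowest. In the knockout they were less extreme in rank, with PUB19 the 185th highest, ORA47 the 126th lowest and STZ the 316th lowest. Between the lines, where wild type plays no part, PUB19 ranked 115th among the probe sets higher in the overexpressor, and STZ was 4194th among those lower. The median log2 ratio of all measured probe sets was -0.02, -0.01 and -0.01 in the 3 comparisons, and no shift was applied. The arrays came already scaled, so these medians do not check the scaling. Median signals were 181.7 in wild type, 169.4 in the overexpressor and 172.5 in the knockout. Setting them equal moved the STZ log2 ratio in the overexpressor from -1.78 to -1.68.

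**Figure D2:**
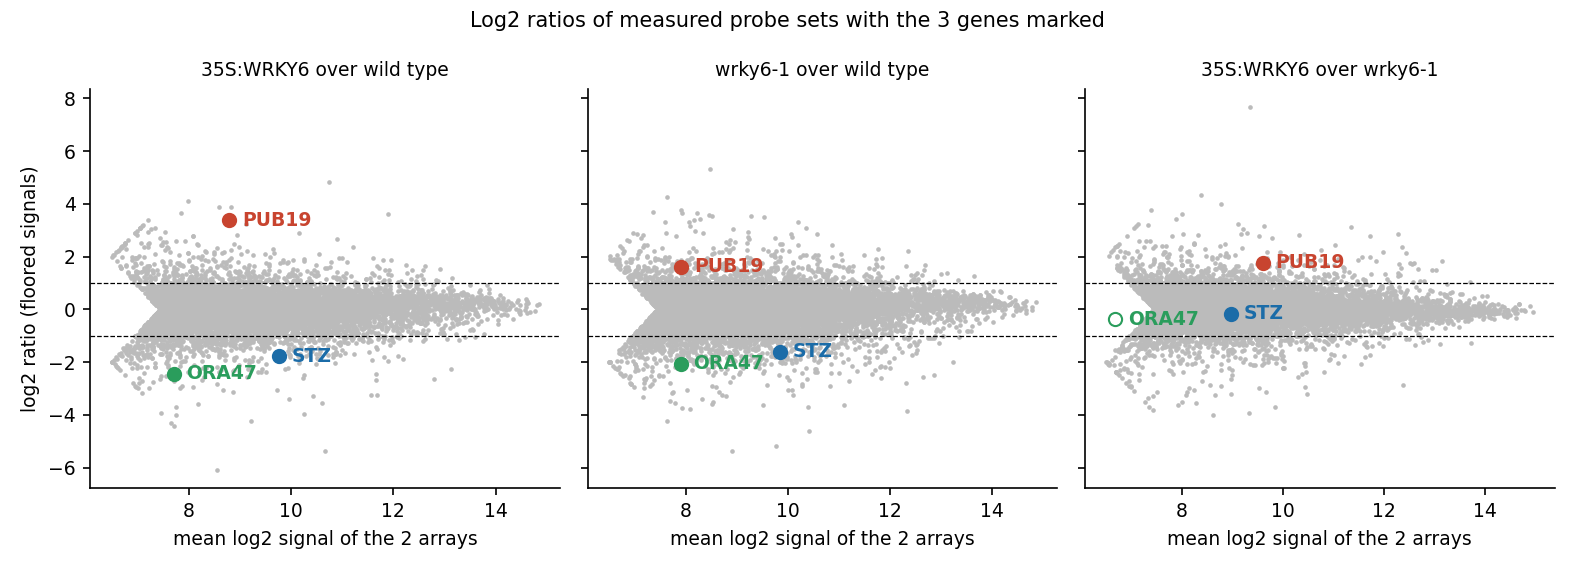
Log2 ratio of floored signals (vertical axis) against the mean log2 signal of the 2 arrays (horizontal axis) for all measured probe sets (grey) in the 3 comparisons, with STZ, ORA47 and PUB19 in colour, an open circle where the gene was not measured, and dashed lines at 2-fold. PUB19 lies above the dashed line in all 3 panels, while STZ and ORA47 lie below it only in the comparisons with wild type.

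STZ belongs to a group of related zinc finger factors that includes the ZAT and AZF genes. Here and below, a gene counted as having a probe set only if the annotation used here named a probe set for it alone. The genes behind the 8730 unlisted probe sets are not known here, so a gene without a count may still be on the array. Of 16 listed, 6 had a probe set and 2 were measured. Besides STZ this was AT2G28200, with signals of 798 in wild type, 628 in the overexpressor and 526 in the knockout. Its log2 ratios of -0.35 and -0.60 to wild type and of 0.26 between the lines did not reach 2-fold. The median of all measured probe sets stood at -0.02, -0.01 and -0.01 in the same comparisons. The other 4 listed genes stayed under the filter on every array.

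ORA47 was the only one of 29 listed AP2/ERF stress factors to be measured, and 6 of them had a probe set. The 5 others, AT1G77640, AT1G44830, AT4G31060, AT1G19210 and AT1G22810, were under the filter on all arrays, so the family gives no comparison for ORA47. CBF1, CBF2, CBF3 and DREB2A, the cold and drought factors of this family, were not analysed here.

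The U-box family gave the fullest comparison, with 18 of 33 listed ligases having a probe set. In the overexpressor, 13 were measured, and relative to wild type 2 of them were past 2-fold upwards and 4 past 2-fold downwards, where 3.79% and 5.61% of all measured probe sets were. PUB19 was chosen on these contrasts, and without it 12 were measured, 1 of them higher and 4 lower. At a 3-fold threshold the 6 became 2, beside 3.10% of all measured probe sets. Under the filter at the 70th percentile, a signal of 444, the count was 2, beside 9.24%. Only PUB19, AT1G23030, AT3G54790, AT1G71020 and AT3G49810 passed that filter, the first 2 of them past 2-fold. The median log2 ratio of the 13 was -0.26, against -0.02 for all measured probe sets. PUB19 had the largest ratio of the 13 in size. The other higher gene was PUB22, known to restrain immune and drought responses together with PUB23, at 172 in wild type, 408 in the overexpressor and 153 in the knockout. As for PUB19, its wild-type signal was under the filter, which fixed its direction. PUB23 and PUB24 had log2 ratios of 0.55 and 0.22 in the overexpressor, short of 2-fold.

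The U-box genes lower in the overexpressor were AT4G36550, PUB25, PUB26 and AT1G23030. AT4G36550 was at 370 in wild type, 104 in the overexpressor and 282 in the knockout, a log2 ratio of -1.83 in the overexpressor. PUB25 was at 220, 82.3 and 207 on the same arrays, a log2 ratio of -1.42, and PUB26 at 197, 90.1 and 233, a log2 ratio of -1.13. PUB25 and PUB26 are closely related ligases known from immune and cold signalling. All 3 were low on the overexpressor array alone, where they lay under the filter, so the filter fixed their direction. AT1G23030 was at 660, 316 and 435, a log2 ratio of -1.06.

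In the knockout, 1 of 11 measured U-box genes, PUB19, differed at least 2-fold from wild type, beside 12.9% of all measured probe sets. PUB19 was chosen on this contrast, so nothing is read from that share, and without it 0 of 10 differed. Under the filter at the 70th percentile, which PUB19 did not pass there, the count was 0. Only AT3G54790, AT1G71020, AT1G23030 and AT3G49810 stayed measured under it. The median of the 11 was -0.09, against -0.01 for all measured probe sets. For the genes that passed the filter at the 70th percentile it was -0.51. The 10 genes other than PUB19 lay between a log2 ratio of -0.75 for AT1G71020, at 698 in wild type and 416 in the knockout, and 0.24 for PUB26. Compared directly, the overexpressor was at least 2-fold above the knockout for 3 of 13 measured U-box genes and at least 2-fold below it for 3, where 4.53% and 4.65% of all measured probe sets were. Without PUB19, 12 were measured, 2 of them higher and 3 lower. At a 3-fold threshold the 6 that include PUB19 became 1, beside 2.73% of all measured probe sets. Under the filter at the 70th percentile, which only PUB19 and AT1G71020 passed, the count was 1, beside 8.87% of all. Where the mean of both arrays had to pass the filter it was 3, beside 8.05%. The higher ones were PUB19, PUB22 with a log2 ratio of 1.41 and PUB24 with 1.14. PUB22 and PUB24 were measured there only through the overexpressor, leaving PUB19 as the one of these 3 above the filter on both arrays. The lower ones were AT4G36550 with -1.44, PUB26 with -1.37 and PUB25 with -1.33, each measured only through the knockout. The median of the 13 was -0.03, against -0.01 for all measured probe sets. PUB19 and AT1G71020, at 0.37, which alone passed the filter at the 70th percentile, had a median of 1.07.

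**Figure D3:**
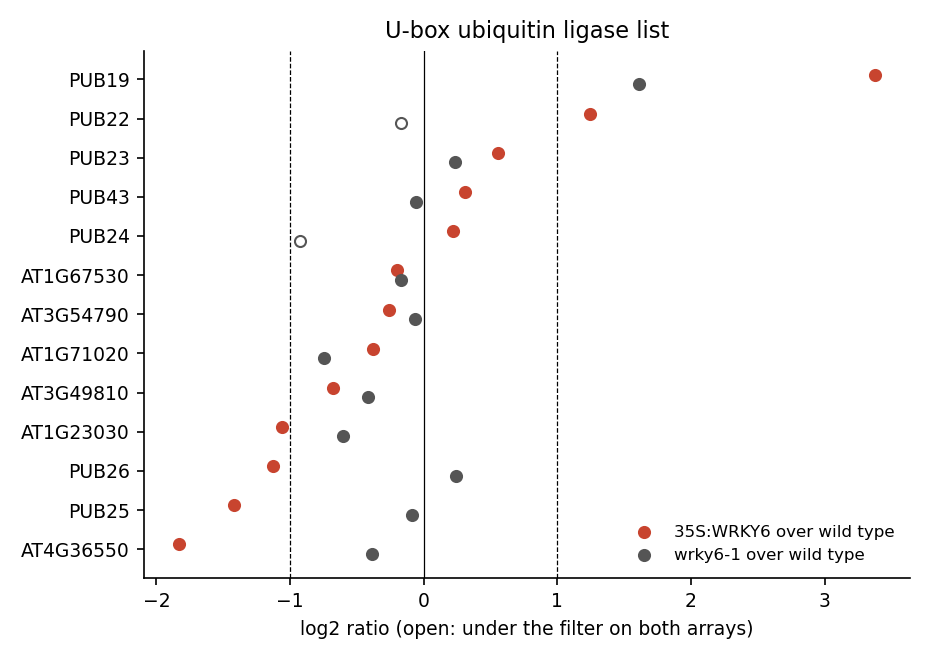
Log2 ratio to wild type (horizontal axis) of the 13 U-box ubiquitin ligase genes measured in either comparison (vertical axis), in 35S:WRKY6 (red) and wrky6-1 (grey), 1 array per genotype, with open circles for genes under the filter on both arrays and dashed lines at 2-fold. PUB19 is the only gene past 2-fold in both lines, at 3.38 and 1.61, while PUB22, AT1G23030, PUB26, PUB25 and AT4G36550 are past it in 35S:WRKY6 and not in wrky6-1.

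Few genes of the pathways linked to the 3 regulators had a probe set named for them alone in the annotation used here. For jasmonate, whose synthesis ORA47 is known to activate, 2 of 31 listed genes had one and 1 was measured. This was OPCL1, an acyl-activating enzyme of jasmonate synthesis, at 242 in wild type, 578 in the overexpressor and 320 in the knockout. OPCL1 was 2.39-fold higher in the overexpressor than in wild type. In the knockout its log2 ratio was 0.40, short of 2-fold, and between the lines it was 0.85. JMT, which methylates jasmonate, was under the filter on all arrays, at 0.893, 110 and 81.4.

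Of 22 genes of the rapid response to touch, wounding and calcium, in which STZ also takes part, 5 had a probe set and 1 was measured. The calmodulin-like gene CML38 was at 212 in wild type, 180 in the overexpressor and 60.9 in the knockout. It was low in the knockout, with a log2 ratio of -1.80 to wild type, and was at -0.24 in the overexpressor. STZ, by contrast, was low in both lines. CML38 was 2.95-fold higher in the overexpressor than in the knockout, a log2 ratio of 1.56, while STZ was at -0.17 in that comparison. The CML38 signal in the knockout lay under the filter. Its log2 ratio of the knockout to wild type was -1.14 with the floor at the 40th percentile and -1.08 under lowess scaling. Between the lines the same settings gave 0.90 and 2.05. With the filter on the mean of the arrays CML38 was measured neither there nor in the knockout against wild type.

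Of 29 genes of abscisic acid signalling and dehydration, the responses PUB19 is known to restrain, 2 had a probe set and both were measured. COR15A, a cold-induced chloroplast protein gene, was at 913 in wild type, 261 in the overexpressor and 2081 in the knockout. Its log2 ratios to wild type were -1.81 and 1.19. COR15A was lowest on the array where PUB19 was highest, and both were higher in the knockout than in wild type. Whether the COR15A and PUB19 signals are related was not tested. The dehydrin gene COR47 had log2 ratios of -0.18 in the overexpressor and -0.48 in the knockout. The medians of the 2 genes were -0.99, 0.35 and -1.35 in the 3 comparisons.

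Leaving out STZ, ORA47 and PUB19, 36 of the 157 listed genes had a probe set. In the overexpressor, 17 of them were measured, 2 of them 2-fold or more above wild type and 5 of them 2-fold or more below it, with a median log2 ratio of -0.26. These 7 were 41.2% of the 17, beside 9.40% of all measured probe sets, and 5 of the 7 were U-box genes. Among the 7, PUB22, AT4G36550, PUB25 and PUB26 passed the filter through 1 array only, which fixed their direction. In the knockout, 15 were measured, 1 higher and 1 lower, or 13.3% beside 12.9%, with a median of -0.17. Between the lines 17 were measured, 3 higher and 4 lower in the overexpressor, or 41.2% beside 9.18%, with a median of 0.26. PUB22, PUB24, CML38, AT4G36550, PUB25 and PUB26 passed the filter there through 1 array only. COR15A was the one of these 7 above it on both. The lists were drawn up with results known and hold few measured genes, so these shares describe the arrays only.

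Genes with the most similar pattern were sought among 1004 other measured probe sets that carry a symbol. Likeness was the Euclidean distance, in log2 units, between floored signals over the 3 arrays after each gene's mean was removed. With only 3 arrays, sharing the same wild-type array, many genes can come close, and the distance is a description. The closest to STZ were ZCF37 at 0.10, BPC1 at 0.12, JKD at 0.21, ATL8 at 0.27 and QQS at 0.27. ZCF37 was at 466 in wild type, 133 in the overexpressor and 165 in the knockout. BPC1, a GAGA-binding factor, was at 466, 121 and 147, and JKD, a zinc finger factor of root patterning, was at 224, 70.7 and 90.8. ATL8, a RING-type ubiquitin ligase, was at 617, 182 and 163.

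ORA47 stood further from its nearest genes, which were QQS at 0.35, BPC1 at 0.38, STZ at 0.49, ZCF37 at 0.50 and ATL8 at 0.51. Thus 4 of the 5 genes nearest to STZ were also among the 5 nearest to ORA47. STZ and ORA47 lie close to each other, so nothing is read from this overlap. ZCF37, BPC1, JKD and QQS were under the filter in both lines and were measured only through wild type, which fixed their direction. QQS, a gene known to affect starch content, was at 180 in wild type and at 26.3 and 1.19 in the lines, under the floor in both, so its distances depend on the floor.

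PUB19 was nearest to ICL at 0.28, BGLU28 at 0.59, RR16 at 0.64, ChiC at 0.94 and PGM at 1.02. ICL encodes isocitrate lyase, an enzyme of the glyoxylate cycle, and was at 31.8 in wild type, 359 in the overexpressor and 125 in the knockout, so its wild-type value was set by the floor. The class V chitinase gene ChiC was at 300 in wild type, 1245 in the overexpressor and 528 in the knockout. PGM, annotated as a phosphoglycerate mutase, was at 137, 545 and 207. RR16, a cytokinin response regulator, was at 78.1, 459 and 143, and the β-glucosidase gene BGLU28 at 65.1, 814 and 353. In each of these genes the overexpressor was highest and wild type lowest, as for PUB19. They were chosen for closeness to the PUB19 pattern, so nothing is read from this shared order. ICL, BGLU28, RR16 and PGM were under the filter in wild type and were measured only through a line, so wild type could not be their highest array. ICL and RR16 were under it in the knockout as well, so their order between wild type and knockout was not measured.

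**Figure D4:**
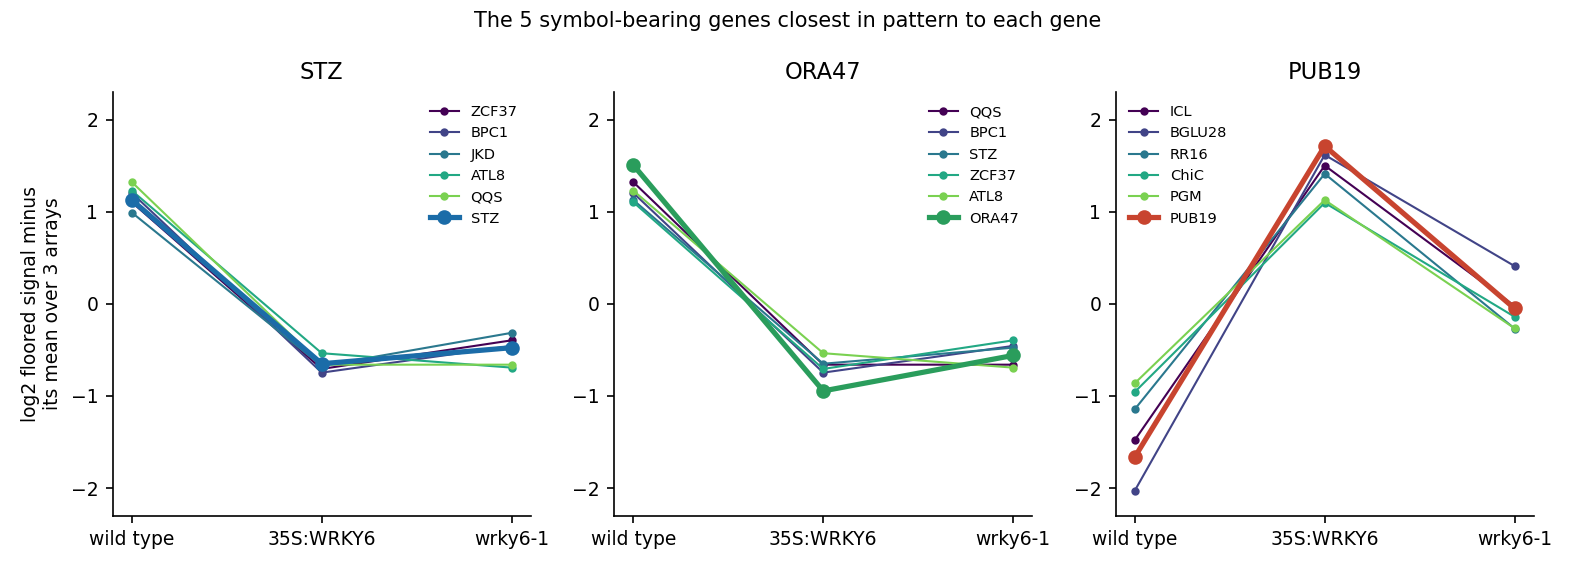
Log2 floored signal minus its mean over the 3 arrays (vertical axis) on the wild-type, 35S:WRKY6 and wrky6-1 arrays (horizontal axis) for STZ, ORA47 and PUB19 (thick lines) and the 5 genes with a symbol closest to each (thin lines), each point being 1 array. The STZ and ORA47 panels share 4 thin-line genes, and the PUB19 panel shows a wider scatter, with distances from 0.28 to 1.02.

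All 3 regulators lie on chromosome 1, as does WRKY6, and in the TAIR10.1 order none is within 3 genes of another. Of the 18 genes within 3 positions of a member, 8 had a probe set, and 0 of the 7 measured in each comparison with wild type reached 2-fold, beside 9.40% and 12.9% of all measured probe sets, so with 7 genes nothing is read from this count. AT1G27700, 3 positions from STZ, was at 254 in wild type, 280 in the overexpressor and 274 in the knockout. Beside ORA47, the aldehyde dehydrogenase gene ALDH10A8 had log2 ratios of -0.32 in the overexpressor and -0.40 in the knockout. AT1G74910 was at -0.39 and -0.65, and AT1G74940 at -0.26 and -0.07. JAZ2, a jasmonate repressor gene 3 positions from ORA47, was not analysed here.

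Next to PUB19, AT1G60200 was at 181 in wild type, 114 in the overexpressor and 113 in the knockout, log2 ratios of -0.67 and -0.68. It passed the filter only through wild type, which fixed its direction. AT1G60160 was at -0.13 in the overexpressor and -0.94 in the knockout, and AT1G60230 at 0.21 and 0.48.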

How the data were processed

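The deposited values were linear signal intensities, 1 per probe set and array. GCOS 1.0 and MAS5 are listed in the submitters' processing notes, with no step assigned to either. The 2% trimmed means were 500.0, 499.8 and 500.1 in wild type, 35S:WRKY6-9 (the overexpressor) and wrky6-1 (the knockout), so the authors' scaling was kept. Of 22810 probe sets, 64 controls were left out. Genes were named from the platform annotation, which named 1 gene for 13513 probe sets, several for 503 and was without an entry here for 8730. Names were updated through Entrez identifiers to TAIR10.1 for 13436. For a gene with several probe sets the brightest was used. Gene order and overlap were taken from the TAIR10.1 gene table, no coordinates are printed, and no sequences were used.

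The floor, filter and 2-fold threshold followed an earlier analysis of these arrays, and the members and the 6 gene lists were chosen with earlier results of these data known. Lists were entered by locus from general knowledge of the families, and a gene without a symbol in the annotation is given by locus code. The rule for named genes took the members, WRKY6, the 3 measured genes of each list with the largest ratio to wild type (all where 3 or fewer were measured), the 5 nearest genes by pattern and the measured neighbours. Seedling markers and the U-box genes past 2-fold or at the end of a range were named as well, as were listed genes under the filter, the U-box and unmeasured genes after their values were seen. No test was run, since each genotype had 1 array. The counting was tested on simulated data. Alternatives were quantile, median and lowess scaling, floors at the 20th and 40th percentiles, filters at the 70th percentile and on the mean, and a 3-fold threshold (pandas 2.3.3, statsmodels 0.14.6).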

Additional observations from a re-analysis of the deposited data

How the results depend on the processing

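The number of arrays limits every value, and no error between plants could be estimated. Under the 3 other scalings and the 2 other floors, the log2 ratios of STZ to wild type stayed between -1.78 and -1.68 in the overexpressor and between -1.60 and -1.53 in the knockout. Those of ORA47 stayed between -2.45 and -2.33 and between -2.07 and -1.99, and those of PUB19 between 3.38 and 3.48 and between 1.61 and 1.69. PUB19 between the lines ranged from 1.74 to 1.79 and STZ from -0.18 to -0.15. ORA47 between the lines, which was not measured, went from -0.38 to 0.12 under lowess scaling, and the cause was not tested. The filter at the 70th percentile left PUB19 unmeasured in the knockout against wild type. By construction fewer probe sets passed the stricter settings. The 70th-percentile filter counted 697 at least 2-fold different in the overexpressor against wild type and 660 between the lines, in place of 1141 and 1101. For the knockout against wild type it counted 1064 in place of 1581. As shares of the probe sets measured under it these were 9.24%, 8.87% and 13.8%, in place of 9.40%, 9.18% and 12.9%. At 3-fold 376 were counted in the overexpressor, 524 in the knockout and 328 between the lines. No paired analysis was possible because each genotype had 1 array.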
